A study of Mus musculus with 8 samples.

Results

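The 9 enzymes described here carry squalene to cholesterol: squalene epoxidase (Sqle), lanosterol synthase (Lss), lanosterol demethylase (Cyp51), the sterol reductase Tm7sf2, the sterol demethylation enzymes Msmo1, Nsdhl and Hsd17b7, the desaturase Sc5d and the reductase Dhcr7. They were picked by name for their place in the pathway, and all 9 were found by symbol in every RNA-seq and Ribo-seq library, among 24079 symbols listed in both assays. Livers came from C57BL/6 mice fed a high-fat diet (45% kcal from fat). The HF group (the M group of the study) had the diet alone, and the HB group (the B group of the study) had the same diet with betaine dissolved in the drinking water at 2% w/v. The labels start the diet at 8 weeks of age and give an age of 25 weeks, while their protocol text puts the diet itself at 25 weeks. RNA-seq reports mRNA abundance, Ribo-seq reports the fragments of mRNA covered by ribosomes (ribosome-protected fragments, RPFs), and translation efficiency (TE) is the RPF value divided by the mRNA value. Each assay had 2 libraries per group, HF1 and HF2 or HB1 and HB2. The labels describe pooled preparations, while the study's methods describe 2 mice picked per group for sequencing, so whether a library stands for a mouse or a pool is unclear and p-values measure the spread between these libraries. A diet group without added fat was not analysed here, so HB is compared with HF only.

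Cholesterol is built in the endoplasmic reticulum of hepatocytes from acetyl units by way of mevalonate and squalene. Sqle adds an oxygen to squalene, Lss folds the product into lanosterol, Cyp51 removes a methyl group by oxidation, and Tm7sf2 reduces the double bond that this leaves. Msmo1, Nsdhl and Hsd17b7 then act in turn to take off the remaining extra methyl groups, Sc5d places a double bond in the ring, and Dhcr7 reduces the last surplus double bond. Transcription of these genes is known to be driven by SREBP2, which acts with the CCAAT-binding factor NF-Y and with Sp1 when sterols in the endoplasmic reticulum run low.

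On GRCm38 (GENCODE M21) the genes are protein coding and lie on 9 chromosomes: Sqle at chr15:59315077-59331192, Lss at chr10:76531588-76557138, Cyp51 at chr5:4081145-4104746, Tm7sf2 at chr19:6062821-6068373, Msmo1 at chr8:64718139-64733792, Nsdhl at chrX:72918557-72958514, Hsd17b7 at chr1:169949535-169969241, Sc5d at chr9:42251595-42264256 and Dhcr7 at chr7:143823145-143848410. The annotated span of Tm7sf2 shares 532 bases with Vps51 on the same strand. Cyp51 shares 166 bases with Akap9 on the other strand, and Lss shares 11268 bases with the antisense gene 4930483K19Rik. How reads in these stretches were assigned is not given in the sources used here, and the part of the neighbours in the values of the 3 genes was not tested.

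Since the mRNA of the 9 genes differed between the groups in the same direction, their promoters are shown. RefSeq promoter windows (GRCm38.p6, 250 bases before to 50 bases after a start) were at hand for 8 of the 9 genes, all but Sqle. The letters CCAAT, searched on both strands, occurred in a window of 8 of 8 members, compared with 41.1% of the 27025 genes with a window. Within the 120 bases just before the start they occurred in 8 of 8 members and in 24.2% of all genes. The letters GGGCGG (Sp1), on both strands, occurred in 8 of 8 members and 38.2% of all genes, and the sterol regulatory element letters TCACNCCAC in 0 of 8 and 1.44%. For Dhcr7, which has 3 windows, CCAAT was found only in the window whose start is at chr7:143830214-143830214. A match of letters describes the window and is no evidence of binding. The stretches below are the upstream bases of 5 members, on the strand of the gene, 5′ to 3′, with CCAAT or its reverse complement in capitals. They are chr10:76531485-76531604 (plus strand) for Lss, chr5:4104717-4104817 (minus) for Cyp51, chrX:72918401-72918520 (plus) for Nsdhl, chr1:169969212-169969325 (minus) for Hsd17b7 and chr9:42264301-42264420 (minus) for Sc5d.
Lss: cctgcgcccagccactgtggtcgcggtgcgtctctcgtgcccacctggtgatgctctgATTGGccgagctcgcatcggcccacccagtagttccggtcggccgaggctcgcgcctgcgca
Cyp51: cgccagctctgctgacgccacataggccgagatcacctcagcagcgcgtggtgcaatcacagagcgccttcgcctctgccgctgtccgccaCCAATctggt
Nsdhl: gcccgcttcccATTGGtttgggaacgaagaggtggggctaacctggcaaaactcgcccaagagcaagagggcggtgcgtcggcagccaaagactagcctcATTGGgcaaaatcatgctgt
Hsd17b7: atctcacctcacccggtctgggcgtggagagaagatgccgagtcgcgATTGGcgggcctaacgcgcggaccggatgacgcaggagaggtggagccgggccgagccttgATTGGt
Sc5d: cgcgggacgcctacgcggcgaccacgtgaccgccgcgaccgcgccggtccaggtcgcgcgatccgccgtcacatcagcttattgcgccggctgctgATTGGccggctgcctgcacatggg

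The RNA-seq libraries held between 11661207 and 22543471 reads and the Ribo-seq libraries between 141890 and 1056546, with HB2 the smallest Ribo-seq library. Of these, the 9 genes together took 2495 (HF1), 2809 (HF2), 25701 (HB1) and 9725 (HB2) reads in RNA-seq. In Ribo-seq they took 186, 680, 212 and 69 reads in the same order, so that most RPF values of single enzymes rest on few reads. Of the mRNA values, those of Sqle in HF rest on the fewest, 27 and 23 reads. Marker genes of hepatocytes were present (8 of 8), with a summed mRNA level of 48091 and 49932 RPKM in HF and 54935 and 54844 in HB. All 9 enzymes passed the filter on low values (a mean of at least 1 RPKM over the 4 libraries of an assay), in mRNA, RPF and TE.

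The question of the comparison is how betaine changed the mRNA, the ribosome footprints and the translation efficiency of each step. In mRNA every enzyme was higher in both HB libraries than in either HF library. Cyp51 had a fitted log2 fold change of 2.22, Msmo1 of 2.20 and Lss, at the other end, of 0.97. These sizes understate low genes, and with a pseudocount of 0.1 in place of 1 Sqle (2.37) stood beside Cyp51 (2.62) and Msmo1 (2.35). At the cut-offs of the study for mRNA (unadjusted p under 0.001 and a log2 fold change larger than 1), 5 of 9 enzymes were called higher (Cyp51, Tm7sf2, Msmo1, Nsdhl and Dhcr7), compared with 2.3% of the 10687 genes tested. None was called lower, compared with 6.56% of all genes. With a log2 fold change beyond 1 and a Benjamini-Hochberg adjusted p under 0.05, 8 of 9 were called higher, all but Lss, compared with 5.01%. Groups without overlap in this direction were found for 9 of 9 enzymes and for 24.8% of all genes. The median log2 fold change was 1.59 over the enzymes and -0.19 over all genes tested. Leaving out a library leaves its group with 1, which is assumed to vary like the other group. Without HB1 5 of 9 were called (2.26% of all genes), without HB2 9 of 9 (4.7% of all genes), and Dhcr7 was not called without HF2 (log2 fold change 1.31, unadjusted p = 0.00275 and adjusted p = 0.0217 by limma). With no filter on low values only Tm7sf2 and Nsdhl were called (0.459% of all genes), while the fold changes stayed as they were. In bulk tissue, a higher or lower level from a change in the number of cells of a type and from a change in RNA per cell cannot be told apart.

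**Figure D1:**
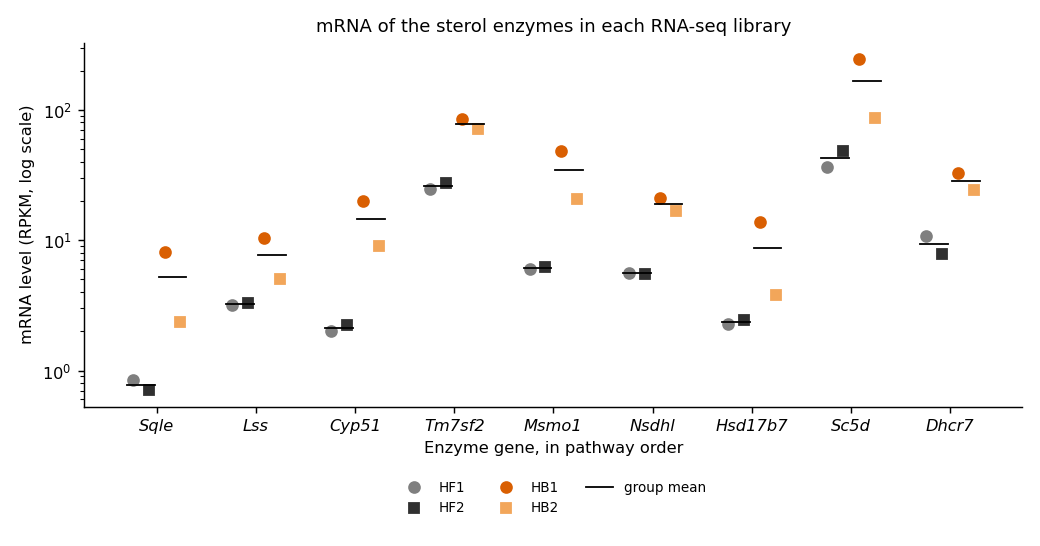
mRNA level (RPKM, log axis) of the 9 enzymes in pathway order, with a point for each RNA-seq library (HF grey and black, HB orange) and a line at each group mean. Both HB libraries lie above both HF libraries for all 9 enzymes, and HB1 lies above HB2 for all 9.

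The entry enzymes, Sqle and Lss, had low mRNA levels. Sqle, a known control point of the pathway, had 0.843 and 0.708 RPKM in HF1 and HF2 and 8.14 and 2.37 RPKM in HB1 and HB2. The groups did not overlap, although HB1 was 3.43 times HB2, and the log2 fold change on the log2(RPKM + 1) scale was 1.65 ± 0.40 (SE; adjusted p = 0.0171 by limma), which missed the threshold of p for a call. Lss mRNA was at 3.16 and 3.30 RPKM in HF and at 10.3 and 5.03 RPKM in HB. Its log2 fold change of 0.97 ± 0.32 (SE, adjusted p = 0.048) missed both cut-offs for a call (unadjusted p = 0.0127).

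At the lanosterol steps, Cyp51, a cytochrome P450, rose from 2.01 and 2.21 RPKM in HF to 19.9 and 9.10 RPKM in HB. The means were 2.11 ± 0.145 and 14.5 ± 7.64 RPKM (SD, n = 2), and the log2 fold change was 2.22 ± 0.34 (SE, adjusted p = 0.00526, limma). Tm7sf2 rose from 24.5 and 27.4 RPKM to 85.2 and 71.2 RPKM. Here the HB libraries were close to each other (HB1 was 1.20 times HB2), with a log2 fold change of 1.55 ± 0.25 (SE, adjusted p = 0.00529).

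Of the 3 enzymes that take off the remaining methyl groups, Msmo1, the oxidase that starts the removal, rose from 6.02 and 6.21 RPKM in HF to 48.4 and 20.6 RPKM in HB (log2 fold change 2.20 ± 0.36 SE, adjusted p = 0.00558 by limma). Nsdhl, the decarboxylating dehydrogenase, rose from 5.64 and 5.53 RPKM to 21.2 and 16.8 RPKM, with the HB libraries again close together (1.59 ± 0.25 SE, adjusted p = 0.00526). Hsd17b7, the ketoreductase, had 2.27 and 2.44 RPKM in HF, and 13.7 and 3.80 RPKM in HB. HB1 was 3.61 times HB2, the widest gap of the 9, and the log2 fold change of 1.33 ± 0.44 (SE, adjusted p = 0.0495) was not called at p under 0.001.

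For the late steps, Sc5d was the most abundant mRNA of the 9 in every library. It had 36.7 and 48.0 RPKM in HF and 244.5 and 86.1 RPKM in HB, a log2 fold change of 1.77 ± 0.43 (SE, adjusted p = 0.0167, limma) that was not called at p under 0.001. Dhcr7 rose from 10.7 and 7.78 RPKM to 32.6 and 24.4 RPKM (1.52 ± 0.27 SE, adjusted p = 0.00683).

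The spread within the HB group was wide and went the same way for every enzyme. HB1 exceeded HB2 in all 9, by a median of 1.05 on the log2(RPKM + 1) scale, compared with a median of 0.04 over all genes, and 6 of the 9 differences lay above the 95th percentile of all genes (0.83). Between HF1 and HF2 the median difference was 0.05, with 6 enzymes higher in HF2 and 3 in HF1. The share of RNA-seq reads on the 9 genes was 0.0214% and 0.0238% in HF1 and HF2, 0.114% in HB1 and 0.0538% in HB2. Without HB1 the median log2 fold change of the enzymes was 1.32, and without HB2 it was 2.13. Of the enzymes not called, Hsd17b7 went from 0.52 without HB1 to 2.13 without HB2, Sqle from 0.93 to 2.36, Sc5d from 1.02 to 2.51 and Lss from 0.51 to 1.42.

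In RPF the enzymes did not move in the same direction. Of the 9 enzymes, 2 had a fitted log2 fold change above 0 (Sc5d and Msmo1) and 7 below 0, with a median of -0.72, compared with -0.43 over the 11190 genes tested. Cyp51 was the only enzyme called lower (log2 fold change beyond 1, unadjusted p under 0.05), compared with 7.86% of all genes, and 0 of 9 were called higher, compared with 1.58%. In 3 of 9 (Lss, Cyp51 and Tm7sf2) both HB libraries lay below both HF libraries, and 33.2% of all genes did so. These shares are near the background. No gene of the 11190 had an adjusted p under 0.05 in limma (the smallest was 0.108), while 1122 had an unadjusted p under 0.05. The call of Cyp51 was lost without HF1 (limma, unadjusted p = 0.118, adjusted p = 1) and without HF2 (unadjusted p = 0.106, adjusted p = 0.855). Its log2 fold change was -1.88 and -1.69 there. Without HB1, Cyp51, Tm7sf2 and Dhcr7 were called lower, as were 23.3% of all genes. Without HB2, Sqle, Cyp51 and Nsdhl were called lower and Sc5d higher, compared with 14.2% and 4.68% of all genes.

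**Figure D2:**
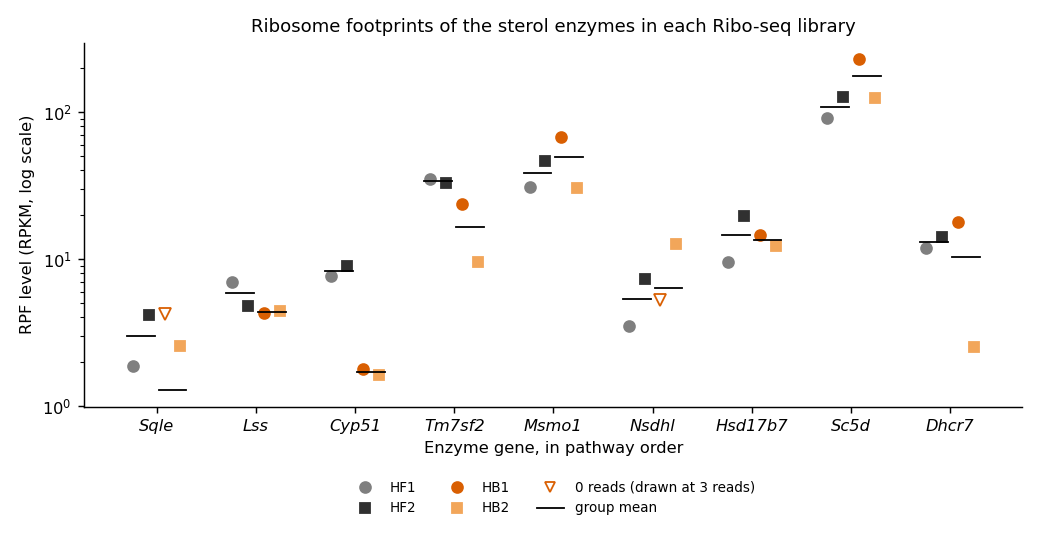
RPF level (RPKM, log axis) of the 9 enzymes in each Ribo-seq library, drawn as in the plot of mRNA levels, with an open triangle at the RPKM of 3 reads where a library had 0 reads. Both HB libraries lie below both HF libraries for Lss, Cyp51 and Tm7sf2, and the groups overlap for the other 6.

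Behind the RPKM stand whole reads, which could be recovered from the steps between low values. For Sqle there were 2 (HF1), 12 (HF2), 0 (HB1) and 1 (HB2) RPF reads, or 1.88, 4.13, 0 and 2.56 RPKM. In HB1 a count of 0 allows up to 3 reads, or 4.25 RPKM, so no difference was detectable at this depth, and the ratio of HB to HF reads per total was 0.259 with a 95% exact interval from 0.00612 to 1.70. Lss had 17, 32, 7 and 4 RPF reads, at 6.92, 4.79, 4.30 and 4.45 RPKM. Although the groups did not overlap, the gap between HF2 and HB2 was small and the log2 fold change was -0.33 ± 0.57 (SE, adjusted p = 0.838).

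Cyp51 had 13 and 41 RPF reads in HF1 and HF2 (7.70 and 8.91 RPKM) and 2 and 1 reads in HB1 and HB2 (1.79 and 1.62 RPKM). The libraries of each group were close, and the ratio of HB to HF reads per total was 0.201 (95% exact interval 0.0402 to 0.620). The log2 fold change was -1.78 ± 0.58 (SE, unadjusted p = 0.0287, adjusted p = 0.493 by limma). Tm7sf2 had 20, 51, 9 and 2 RPF reads, at 34.9, 32.6, 23.7 and 9.53 RPKM. Both HB values were the lower ones, with a log2 fold change of -1.11 ± 0.52 (SE, adjusted p = 0.555), and the interval of the ratio of reads per total (0.268 to 1.07) reached past 1. Without HB1 its log2 fold change was -1.72 and without HB2 it was -0.49.

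Msmo1 had 22, 90, 32 and 8 RPF reads, at 30.7, 46.1, 67.4 and 30.5 RPKM, so that HB1 was the highest library and HB2 the lowest (log2 fold change 0.26 ± 0.50 SE, adjusted p = 0.851, limma). Nsdhl had 3, 17, 0 and 4 reads, at 3.49, 7.25, 0 and 12.7 RPKM. HB2 was the highest, and the 0 of HB1 allows up to 5.26 RPKM, which is above HF1. Hsd17b7 had 17, 95, 17 and 8 reads, at 9.58, 19.7, 14.5 and 12.3 RPKM, where both HB values lay between the HF values (log2 fold change -0.04 ± 0.51 SE, adjusted p = 0.977). For these 3 enzymes no direction can be read from the RPF values.

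Sc5d had the most RPF reads of the 9, with 79, 300, 132 and 40, at 90.5, 126.3, 228.3 and 125.3 RPKM. HB1 was the highest library and HB2 lay just under HF2 (log2 fold change 0.66 ± 0.40 SE, adjusted p = 0.621, limma). The value was 0.42 without HF1, 0.23 without HB1 and 1.09 without HB2. Dhcr7 had 13, 42, 13 and 1 reads, at 11.9, 14.1, 18.0 and 2.50 RPKM. Here HB1 was the highest and HB2, on its 1 read, the lowest, and without HB2 the log2 fold change went from -0.78 to 0.44.

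The HB reads were also summed and set beside the number that the HF rate of reads per total gives. Cyp51 had 3 reads in HB (95% exact Poisson interval 0.619 to 8.77), compared with 14.9 at the HF rate, and was the only enzyme whose interval lay below that number. Sc5d had 172 reads (147 to 199.7), compared with 105, and was the only enzyme above it. When the HF rate was multiplied by the HB to HF ratio of summed mRNA reads per total, the numbers were 27.8 for Sqle, 33.4 for Lss, 107 for Cyp51, 59.7 for Tm7sf2, 182 for Msmo1, 19.0 for Nsdhl, 122 for Hsd17b7, 429.9 for Sc5d and 47.5 for Dhcr7. The counted HB reads of all 9 enzymes lay below these, with 1, 11, 3, 11, 40, 4, 25, 172 and 14 reads, each with an interval that ended below its number. These intervals cover counting error of the HB reads only. They leave out that of the HF reads (14 for Sqle and 20 for Nsdhl), the spread between libraries and the error of the mRNA ratio. The share of all genes whose interval lay below or above such numbers was not taken. By fitted TE, 63.2% of all genes tested were lower in HB. The share of Ribo-seq reads on the 9 genes together was 0.0479% in HF1, 0.0644% in HF2, 0.0825% in HB1 and 0.0486% in HB2, so that the groups overlapped.

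**Figure D3:**
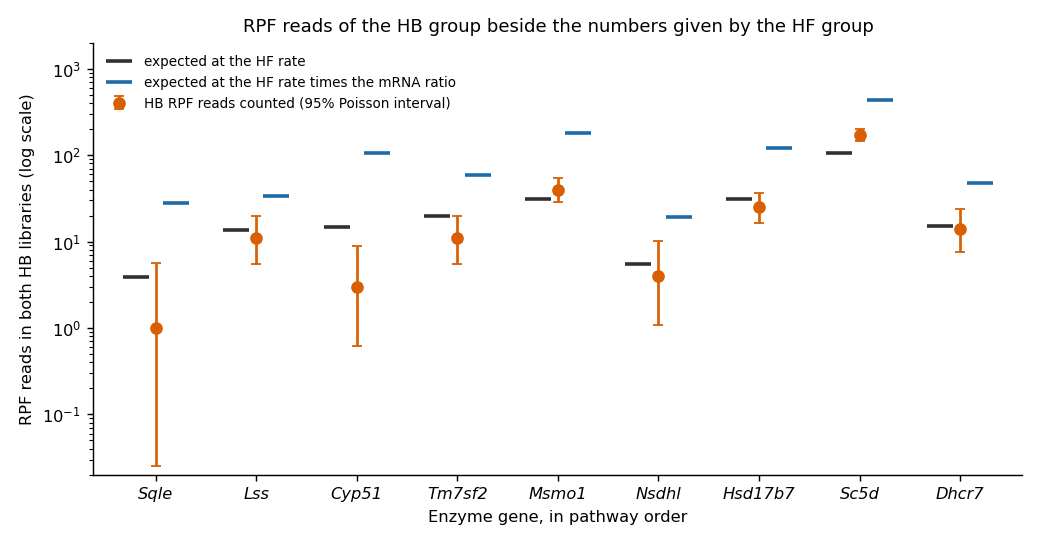
RPF reads summed over HB1 and HB2 for each enzyme (points with 95% exact Poisson intervals, log axis), beside the number expected at the HF rate of reads per total (black) and at that rate times the HB to HF ratio of summed mRNA reads per total (blue). The point of Cyp51 (3 reads) lies below both marks, that of Sc5d (172 reads) lies between them, and all 9 intervals lie below the blue marks.

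TE was lower in HB by the fitted value for 9 of 9 enzymes, with a median log2 fold change of -2.30, compared with -0.35 over the 9455 genes tested. Since mRNA is the divisor, the higher mRNA levels described above enter these values. With libraries paired by number, both HB ratios lay below both HF ratios in 8 of 9 enzymes, all but Nsdhl, compared with 31.7% of all genes. This separation depends on the pairing. With the numbers crossed (each RNA-seq library set against the other Ribo-seq library of its group), the ratios of Sc5d overlapped between the groups. Its log2 fold change was then -1.11 ± 0.88 (SE; unadjusted p = 0.258, adjusted p = 0.607 by limma). With the thresholds of the study (a log2 fold change beyond 2, unadjusted p under 0.05), 3 of 9 were called lower (Cyp51, Tm7sf2 and Dhcr7), compared with 4.6% of all genes. No gene had an adjusted p under 0.05 in limma (the smallest was 0.328), while 1154 had an unadjusted p under 0.05. Which RNA-seq and Ribo-seq library belong together is not known. With the numbers crossed, and in a model that needs no pairs, Sqle was called and Dhcr7 was not (unadjusted p = 0.0731 and 0.057, adjusted p = 0.417 and 0.33 by limma), and with a pseudocount of 0.1 Msmo1 was called in place of Dhcr7. Without HF1, Cyp51 and Msmo1 were called (1.3% of all genes), and without HF2 Cyp51 alone (1.89%). The log2 fold changes of Tm7sf2 were -2.54 and -2.78 there and those of Dhcr7 -2.62 and -1.97. Without HB2, Sqle, Cyp51, Tm7sf2, Nsdhl and Hsd17b7 were called (7.65% of all genes) and Dhcr7 was not (log2 fold change -1.28). Without HB1, Cyp51, Tm7sf2 and Dhcr7 were called (13.4%), and the median of the enzymes was -1.04.

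**Figure D4:**
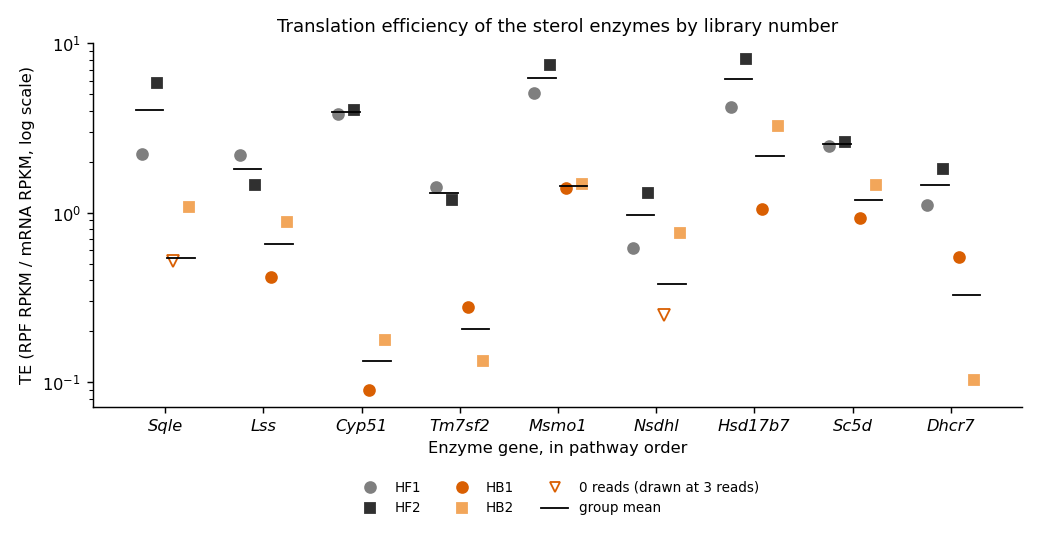
TE (RPF RPKM divided by mRNA RPKM, log axis) of the 9 enzymes for libraries of the same group and number, drawn as in the plot of mRNA levels, with an open triangle at the ratio of 3 reads where a library had 0 RPF reads. The HB points of Cyp51 (0.0898 and 0.178) lie farthest below their HF points (3.83 and 4.02).

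Cyp51 had TE values of 3.83 and 4.02 in HF and 0.0898 and 0.178 in HB. The groups were far apart, with a log2 fold change of -4.0 ± 0.64 (SE; unadjusted p = 0.00072, adjusted p = 0.328, limma), though the HB ratios rest on the 2 and 1 RPF reads given above. Tm7sf2 had 1.42 and 1.19 in HF and 0.278 and 0.134 in HB (-2.66 ± 0.70 SE; unadjusted p = 0.00882, adjusted p = 0.334). Dhcr7 had 1.11 and 1.81 in HF and 0.552 and 0.103 in HB (-2.30 ± 0.86 SE; unadjusted p = 0.0365, adjusted p = 0.387), and the lower HB ratio rests on 1 read.

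Msmo1 had TE values of 5.10 and 7.43 in HF and 1.39 and 1.48 in HB. Its HB ratios rest on more reads and are close together when libraries are paired by number. The log2 fold change of -1.94 ± 0.47 (SE; unadjusted p = 0.00609, adjusted p = 0.334 by limma) fell short of the size needed for a call. With the numbers crossed, the SE of Msmo1 was 0.82 (unadjusted p = 0.0628, adjusted p = 0.405 by limma). Sc5d, on the most reads, had 2.47 and 2.63 in HF and 0.934 and 1.46 in HB (-1.11 ± 0.51 SE; adjusted p = 0.446). Hsd17b7 had 4.22 and 8.05 in HF and 1.05 and 3.25 in HB (-1.37 ± 0.65 SE; adjusted p = 0.461), and its log2 fold change was -0.67 without HB1 and -2.07 without HB2. In these 3 enzymes the HB ratios, paired by number, lay below the HF ratios without passing the call.

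Lss had TE values of 2.19 and 1.45 in HF and 0.416 and 0.885 in HB (-1.30 ± 0.61 SE; adjusted p = 0.458, limma). Sqle had 2.23 and 5.84 in HF and 0 and 1.08 in HB (-2.67 ± 1.12 SE; adjusted p = 0.417), on no more than 1 read in an HB library. For Sqle the ratio that 3 reads would give is 0.522 in HB1 and 3.24 in HB2, and the latter is above HF1, so that the gap between its groups does not hold at that floor. Nsdhl had 0.618 and 1.31 in HF and 0 and 0.759 in HB, and its groups overlapped (-2.31 ± 1.38 SE; adjusted p = 0.527). These last values rest on the library with 0 reads: without HB1 the log2 fold change was -0.26 for Nsdhl and -1.04 for Sqle, and without HB2 it was -4.36 and -4.31.

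**Figure D5:**
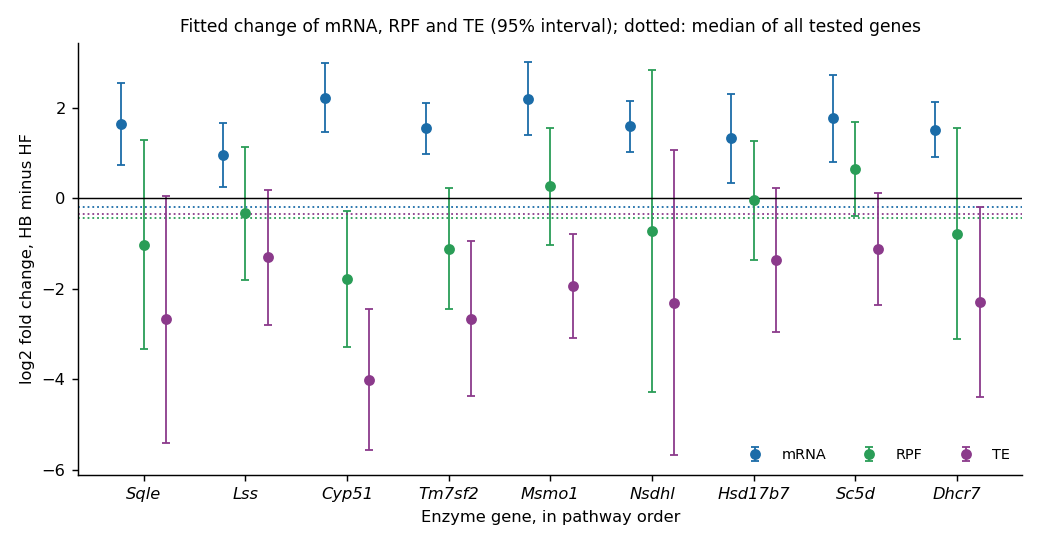
Fitted log2 fold change (HB minus HF) of mRNA, RPF and TE for each enzyme, with 95% intervals from limma and dotted lines at the medians of all genes tested (-0.19, -0.43 and -0.35). All 9 mRNA intervals lie above 0. Of the RPF intervals only that of Cyp51 lies wholly below 0. Of the TE intervals those of Cyp51, Tm7sf2, Msmo1 and Dhcr7 do.

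The enzymes also differed among themselves in level. By mean HF mRNA, per length, the order was Sc5d (42.3 RPKM), Tm7sf2 (26.0), Dhcr7 (9.26), Msmo1 (6.12), Nsdhl (5.59), Lss (3.23), Hsd17b7 (2.35), Cyp51 (2.11) and Sqle (0.775), and no neighbours overlapped between their 2 libraries. In both HB libraries the first and last places were again held by Sc5d and Sqle, and Cyp51 had passed Hsd17b7 and Lss. By HB mean Msmo1 stood before Dhcr7. This held in HB1 (48.4 and 32.6 RPKM) but not in HB2 (20.6 and 24.4 RPKM). By mean HF RPF the order was Sc5d (108 RPKM), Msmo1 (38.4), Tm7sf2 (33.7), Hsd17b7 (14.6), Dhcr7 (13.0), Cyp51 (8.31), Lss (5.85), Nsdhl (5.37) and Sqle (3.0). Msmo1 and Tm7sf2 overlapped there, as did Hsd17b7 and Dhcr7, and the values of Lss, Nsdhl and Sqle each overlapped with those of the next. The HF TE ran from a mean of 0.965 in Nsdhl to 6.27 in Msmo1 and 6.14 in Hsd17b7.

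Among neighbouring genes of the pathway, the steps from acetyl units to squalene (10 genes) had 5 called higher in mRNA (2.3% of all genes), 0 lower (6.56%), and a median log2 fold change of 1.46. The 3 with the smallest p were Fdps, which makes farnesyl diphosphate (30.0 and 23.4 RPKM in HF, 300.1 and 125.2 in HB), Pmvk, a mevalonate pathway kinase (8.07 and 8.99, 56.0 and 29.9), and Mvk, mevalonate kinase (1.97 and 2.14, 8.87 and 6.68). In RPF, where 7.86% of all genes were called lower, Mvk was (6.08 and 5.02 RPKM in HF and listed at 0 in both HB libraries, adjusted p = 0.493 by limma). For a gene of 1 kb, 3 reads would be 11.7 RPKM in HB1 and 21.1 RPKM in HB2. The floor at the length of Mvk was not computed, so its 0 values do not settle whether it was lower. Of the 9 genes tested, 0 were called higher, beside 1.58% of all genes. In TE, 2 of 9 were called lower (4.6% of all genes), Mvk and Idi1, an isomerase (9.81 and 8.11 in HF, 0.325 and 1.47 in HB). Both had an adjusted p of 0.328 (limma). The TE of Mvk (3.08 and 2.34 in HF, 0 in both HB libraries) rests on the same 0 RPF values, so the limit of its RPF call holds here too. HB1 exceeded HB2 in mRNA for 10 of 10 of these genes, as it did for all 9 enzymes after squalene.

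Of 3 other post-squalene genes tested in mRNA, 1 was called higher (2.3% of all genes) and 0 lower (6.56%), with a median log2 fold change of 0.66. In TE, 1 of these 3 was called lower (4.6% of all genes). Among them, Lbr, whose sterol reductase activity overlaps that of Tm7sf2, had an mRNA log2 fold change of 0.07 (adjusted p = 0.861, limma). Of 4 redox partners of the oxygenase steps, 1 was called higher in mRNA, where 2.3% of all genes were. This was Cyb5b (28.4 and 26.9 RPKM in HF, 113.6 and 73.8 in HB). Of 11 genes of the SREBP axis tested 1 was called higher, again beside 2.3% of all genes, with a median log2 fold change of 0.31. The mRNA of Srebf2, which encodes SREBP2, had a log2 fold change of 0.22 (adjusted p = 0.555). Of 7 genes of sterol use, 0 were called in mRNA by limma at the thresholds of the study (2.3% of all genes higher and 6.56% lower), and the median was -0.63, beside -0.19 over all genes. With the adjusted p, which called 5.01% of all genes higher and 12.7% lower, Cyp8b1, a bile acid synthesis enzyme, was higher (log2 fold change 1.81, adjusted p = 0.0122) and Abcg5, a sterol exporter subunit, was lower (-1.02, adjusted p = 0.033), and 3 of the 7 had an unadjusted p under 0.05, beside 4329 of 10687 genes in all. In TE, 1 of 7 was called lower, Cyp8b1, beside 4.6% of all genes.

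The genes whose mRNA profile over the 4 RNA-seq libraries lay nearest to the mean profile of the 9 enzymes (Euclidean distance between log2(RPKM + 1) values centred per gene) were Gabbr2, Cryz, Smpdl3a, Pgk1, Abat, Eno1b, Cldn2, Bloc1s5, Sqrdl and Pcca. None of the 10 belongs to the lists above. Each enzyme was itself farther from the mean profile than many other genes, from 32 genes for Sqle to 255 for Lss, of 10678. The profile, low in HF, highest in HB1 and in between in HB2, is thus shared with many genes outside the pathway.

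Markers of other cell types moved with the groups in part. The summed mRNA level of 6 stellate cell markers was 33.8 and 33.0 RPKM in HF and 70.8 and 42.4 in HB, with 6 of 6 above 0 and most of it from Dcn (21.9 and 22.4 in HF, 57.8 and 30.6 in HB). Their summed RPF level went the other way, with 141.6 and 115.9 RPKM in HF and 97.0 and 88.5 in HB. The summed mRNA level of 4 adipocyte markers was 9.63 and 12.1 in HF and 22.4 and 23.4 in HB, nearly all of it from Cfd (9.52 and 12.1 in HF, 22.3 and 22.7 in HB), the only one of the 4 with a mean of at least 1 RPKM. Cholangiocyte markers (5 of 5 above 0) summed to 26.2 and 31.9 in HF and 15.7 and 26.0 in HB, most of it from Spp1 (23.3 and 27.8 in HF, 13.7 and 21.8 in HB). Of the others, Sox9 was lower (1.08 and 0.714, 0.385 and 0.373), and Krt19, Krt7 and Epcam overlapped between the groups. Lymphocyte markers (4 of 5 listed) summed to 1.88 and 3.25 in HF and 1.49 and 1.11 in HB. Kupffer cell and endothelial sums overlapped between the groups, though single markers, chosen here after their values were seen, did not. Of the Kupffer cell markers, Cd5l (11.3 and 18.8 RPKM in HF, 41.4 and 32.6 in HB), Vsig4 (4.49 and 8.80, 16.8 and 11.0) and Marco (0.864 and 1.79, 3.69 and 3.06) were higher in both HB libraries, with HB1 the highest as for the enzymes. Clec4f (72.6 and 64.4, 48.9 and 49.6) was lower. Of the endothelial markers, Stab2 (9.76 and 10.4, 4.00 and 6.02), Pecam1 (6.71 and 4.49, 3.86 and 4.02) and Lyve1 (5.26 and 2.69, 2.28 and 1.40) were lower. Oit3, also endothelial, was higher (5.46 and 5.26, 5.63 and 6.29). Clec4g and Kdr of the endothelial markers overlapped between the groups, as did Adgre1 and Cd68 of the Kupffer cell markers. No marker gene was called in mRNA, and in RPF 1 of 6 Kupffer cell markers and 2 of 6 endothelial markers were called lower, beside 7.86% of all genes. In RPF, Krt7 and Epcam of the cholangiocyte markers, Cd79a and Ms4a1 of the lymphocyte markers, and Adipoq, Plin1 and Retn of the adipocyte markers had no reads in any library. The part of these cells in the values of the sterol enzymes was not tested.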

How the data were processed

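Polyadenylated mRNA and RPFs of mouse liver were sequenced in 4 RNA-seq and 4 Ribo-seq libraries. Reads were aligned with FANSe2 to mm10, and the authors deposited an RPKM for every gene in every library (reads scaled by gene length and library total). Their count over coding sequence or transcript is not given in the sources used here. Both assays use the same length for 8 of the 9 enzymes, and Msmo1 has 1824 bases in RNA-seq and 1846 in Ribo-seq. Totals and whole reads were recovered from the RPKM steps. Recovered reads summed to between 97.2% and 102% of the totals, and 99.44% of RNA-seq and 99.99% of Ribo-seq values above 0 were whole within 0.02 of a read. The lengths were inferred, so the reads of a gene, and of Msmo1 most of all, could be a fraction or multiple of those given.

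The test was two-sided, with limma 3.58.1 (lmFit, then eBayes with trend) under R 4.3.3, of log2(RPKM + 1) by group alone. A gene was tested if its RPKM averaged 1 or more across the assay's 4 libraries, and p-values were adjusted over all genes tested by Benjamini-Hochberg. Fold changes on this scale understate changes of low genes. TE was tested on log2((RPF + 1)/(mRNA + 1)) of libraries with the same group and number, and printed TE values are ratios without a constant. Recovered reads entered a voom alternative. Calls used the thresholds of the study: a log2 fold change beyond 1 with p under 0.001 (mRNA) or 0.05 (RPF), and beyond 2 with p under 0.05 (TE). Intervals of reads are exact at 95% and cover counting error only, since PCR copies count as reads.

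The 9 members, the pathway lists and the tests were chosen with earlier results of these data known. Named genes are the members, the 10 genes of nearest mRNA profile, up to 3 called genes of each list and direction, and Lbr and Srebf2, which were chosen after their values were seen. Results of some genes that the rule selects are not reported here. Promoters came from RefSeq (GRCm38.p6) and positions from GENCODE M21. Stretches of promoter with over 30 bases in annotated exons were shortened or not shown. The steps were tested on simulated data. As alternatives, the pseudocount was set to 0.1, the filter was dropped or raised to 5 RPKM, and the fits were repeated with a common median or sum, no variance trend, a replicate block, adjusted p, leaving out each library, voom on recovered reads, and for TE an interaction model and crossed numbers. A crossed replicate block and scaling to protein-coding reads were chosen after seeing the data.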

Additional observations from a re-analysis of the deposited data

How the results depend on the processing

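In mRNA all 9 enzymes were higher in HB under every alternative, and the number called was 2 with no filter (0.459% of all genes), 7 with a common median (5.05%), 8 with the replicate block (4.66%) and 8 with the adjusted p (5.01%), compared with 5 (2.3%). Leaving out each library gave 5 to 9 calls and medians from 1.32 to 2.13. With libraries shifted to a common median the median was 1.86, and the median of all genes went from -0.19 to 0.08. That scaling also changed the split of all mRNA calls from 246 higher and 701 lower to 540 higher and 291 lower. In RPF the number called lower was 0 with a mean RPKM of at least 5 (4.48% of all genes), a common median (3.76%), the replicate block (5.76%) or the adjusted p (0%). It was 2 with a common sum (23.8% of all genes), which gave a median of -1.46. The common median changed the split of all RPF calls from 177 higher and 879 lower to 349 higher and 421 lower. Leaving out each library gave 0 to 3 called lower, 0 to 1 called higher and medians from -0.89 to -0.29. In TE, where all 9 were lower under every alternative, 7 were called lower with a common sum (median -2.99, with 14.1% of all genes called and their median at -1.03), 6 with voom on recovered reads (4.21% of all genes) and 0 with the adjusted p, and 1 to 5 without each library, with medians from -2.54 to -1.04. Sqle could not be tested in RPF, mRNA or TE with a mean RPKM of at least 5. The cause of these differences was not tested. RPF log2 fold changes changed sign for Hsd17b7 (0.28 with a common median, 0.08 with protein-coding reads, 0.44 without HF2, 0.06 without HB2), Msmo1 (-0.59 with a common sum, -0.02 without HF1, -0.29 without HB1), Sc5d (-0.21 with a common sum), Nsdhl (1.17 without HB1) and Dhcr7 (0.44 without HB2). Over the fits that left out a library these ran from -0.53 to 0.44 for Hsd17b7, -0.29 to 0.82 for Msmo1, -2.61 to 1.17 for Nsdhl and -2.00 to 0.44 for Dhcr7.

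Libraries of the same number share only that number: across genes, their deviations from group means correlated at -0.104 in mRNA, -0.0138 in RPF and 0.0127 in TE, and nothing in the labels pairs them. Between RNA-seq and Ribo-seq libraries it was -0.00239 in HF and -0.0774 in HB. With crossed blocks 8 enzymes were called higher in mRNA (4.44% of all genes) and 0 lower in RPF (5.96%). Of 8 neighbours in the order of levels, 5 kept their order in HB1 mRNA, 7 in HB2 mRNA and 5 each in HB1 and HB2 RPF. Depth limits the RPF and TE values: 4 enzymes had under 3 RPF reads in HB2.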
